A study of Mus musculus with 12 samples.

Results

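The 35 genes described here encode the enzymes of glycolysis and of the pentose phosphate pathway, the enzymes that regulate glycolytic flux, and the membrane transporters for glucose and lactate. They were listed by name from the 38887 genes of the deposited tables, by a rule that uses no measured value though earlier results of these data were known, and all 35 were found and passed the filter on low counts. RNA-Seq was performed on bone marrow-derived macrophages (BMMs) of mice aged 3 to 4 months, which had been differentiated for 6 days with 50 ng/ml M-CSF, the growth factor for macrophages. In IGF2BP2 KO mice, loxP sites flank exons 4 and 5 of Igf2bp2, which encodes an RNA-binding protein, and Cre recombinase is expressed from the Lyz2 locus in myeloid cells. WT animals were littermates without the floxed alleles, with or without Cre. BMMs of both genotypes either stayed untreated (M0) or received IL-4 at 20 ng/ml over 8 h (M2), with 3 mice and 3 libraries in each of the 4 groups (WT M0, KO M0, WT M2, KO M2).

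Glycolysis converts glucose into pyruvate in the cytosol. Hexokinases trap glucose as its phosphate, phosphofructokinase commits it to the pathway, and the later enzymes recover ATP. Lactate dehydrogenase turns pyruvate into lactate, which monocarboxylate transporters carry out of the cell together with protons. The pentose phosphate pathway branches off after hexokinase. Its oxidative arm supplies NADPH, which macrophages use for the oxidative burst and for lipid synthesis, and its non-oxidative arm exchanges sugar phosphates between ribose synthesis and glycolysis. Several steps can be catalyzed by any of several paralogues, which differ in affinity, regulation and tissue distribution. IL-4 drives macrophages towards the alternatively activated (M2) state, which is known for oxidative metabolism and also uses glucose.

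The depth was 24942666 to 29832430 counts per library for WT and 26568719 to 37054582 for KO in M0, and 20011792 to 22744704 for WT and 27347077 to 39632770 for KO in M2. Igf2bp2, counted over the whole gene including the exons that remain, had KO minus WT differences of -0.11 on the log2 scale (SE 0.14, edgeR adjusted p = 0.681) in M0 and of -0.65 (SE 0.14, edgeR adjusted p = 0.0409) in M2, so that it did not separate the genotypes in M0. Lyz2, which carries the Cre insertion, was lower in KO by 8.3 and 8.57 on the log2 scale and did not overlap between the genotypes in either treatment. All KO libraries had this loss of Lyz2. In differences between KO and WT it cannot be told apart from the deletion in Igf2bp2. Summed over 8 macrophage markers, the libraries held 5318 to 6340 CPM (counts scaled to a common library size). Of these 8, Itgam was higher in KO M0 (0.45, edgeR adjusted p = 0.00343), and edgeR called 0 in M2 (1 below 0.05 before adjustment). The 7 markers of IL-4 activation summed to 146 to 304 CPM in M0 and 6652 to 7900 CPM in M2, and 1 of them, Mrc1, was lower in KO M0 (-0.86, edgeR adjusted p = 0.000551). Markers of red cells (6 genes) summed to at most 0.117 CPM and 9 neutrophil markers to 26.1 to 50.5 CPM. Of the 5 neutrophil markers tested, Mmp8 was higher in KO in both treatments (log2 fold change 0.91 in M0 and 0.75 in M2, edgeR adjusted p = 0.00468 and 0.0359), Ngp and S100a9 were lower in KO M0 (-1.82 and -1.38, edgeR adjusted p = 0.0247 and 0.011), and the 4 other than Mmp8 had values of -0.97 to -0.38 in M2 that were not called. The sum of 6 stromal markers, such as the collagen gene Col1a1, overlapped in M0 (30.3 to 54.6 CPM in WT, 8.35 to 30.9 in KO) but not in M2 (33.1 to 60.5 CPM in WT, 9.2 to 26.9 in KO). All 5 stromal markers tested lay lower in KO M2 without overlap (median log2 fold change -1.21), and edgeR called 0 of them, with 4 below 0.05 before adjustment. The part of these markers in the differences between KO and WT reported below was not tested. All 6 markers of dividing cells were lower with IL-4 in both genotypes, and their sum lay between 1640 and 1935 CPM in M0 and between 672 and 1089 CPM in M2. The part of this shift of dividing cells in the changes with IL-4 reported below was not tested. In bulk RNA, fewer cells of a kind and less RNA per cell cannot be told apart.

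Levels are given as TPM, which are corrected for gene length and can therefore be compared between genes. Together the 35 genes held 15664, 15955 and 16119 TPM in the WT M0 libraries and 18057, 18563 and 17934 TPM in KO M0. In M2 macrophages the sums were 14053, 14156 and 14641 TPM in WT and 15035, 15922 and 15321 TPM in KO. The sum was thus higher in KO than in WT in both treatments without overlap, lower with IL-4 in both genotypes, and came to between 1.43% (WT M2) and 1.82% (KO M0) of all TPM on average. With the other deposited version of TPM, a posterior mean, the group means were lower but kept this order (15453 and 17667 TPM in WT and KO M0, 13737 and 15019 TPM in WT and KO M2). TPM were not rescaled between libraries as the counts were for edgeR. On log2(TPM + 1) the median IL-4 change of all genes was shifted by -0.058 in WT and by -0.079 in KO relative to edgeR. The part of this shift in the lower sums with IL-4 was not tested.

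The levels spanned 3 orders of magnitude along the pathway, as the plot of all genes shows. Pkm (pyruvate kinase) was the most abundant transcript in WT M0 with 2967 ± 80 TPM (mean ± SD, n = 3), followed by Gapdh with 2703 ± 103, Aldoa with 1749 and Pgk1 with 1400.1 TPM, and the ranges of these neighbours did not overlap. Eno1 (enolase, 1205 TPM) and Ldha (1173 TPM) came next with overlapping ranges. Gapdh was quantified over a mean length of only 751 to 835 nucleotides in the libraries, so its TPM refers to a short transcript. The entry steps were far lower than the later ones, since the 3 hexokinases together held 298 ± 9.47 TPM in WT M0, the 3 phosphofructokinases 160.3 ± 3.44 TPM and the 3 glucose transporters 144 ± 16.1 TPM. Among the pentose phosphate enzymes, Taldo1 (transaldolase, 695 TPM) and Pgd (phosphogluconate dehydrogenase, 673 TPM) were highest with overlapping ranges, whereas Rpia and Rpe, which interconvert pentose phosphates, had 20.7 and 32 TPM. The least abundant member was Ldhb, the lactate dehydrogenase subunit typical of heart, with 1.24 to 2.16 TPM over the 12 libraries, which rests on 17 to 54 counts per library.

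**Figure D1:**
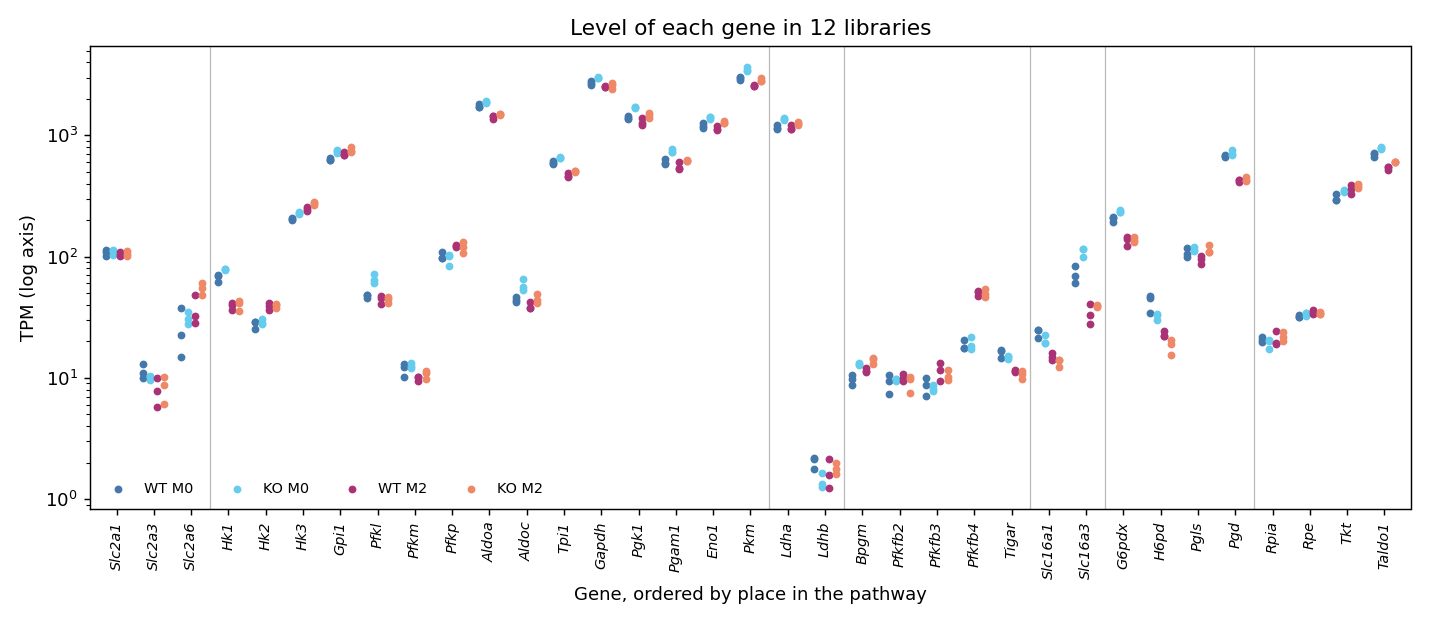
TPM (log axis) of the 35 genes in each of the 12 libraries, 1 point per library, coloured by group (WT M0, KO M0, WT M2, KO M2), with grey lines between classes of genes. Aldoa, Gapdh, Pgk1, Eno1, Pkm and Ldha lie above 1000 TPM, while glucose transporters, phosphofructokinases and flux regulators reach at most 133 TPM. Ldhb is lowest.

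Which paralogue dominated a step was examined as its share of the step's summed TPM in each library. Shares were tested for 16 paralogues of 8 steps (1 per step where a step has only 2 paralogues). For IL-4 the M0 and M2 labels were exchanged within each genotype in an exact permutation test (two-sided, 400 arrangements, smallest possible p = 0.005), with adjustment over the 16 shares. With IL-4, 13 of the 16 shares changed. This permutation does not use the pairing of libraries by mouse. A paired test by sign changes over the 6 mice gave each of these 13 shares an adjusted p of 0.0385. The 3 that did not pass were Aldoa, which held 96.6% to 97.6% of aldolase, Ldha, which held 99.8% to 99.9% of lactate dehydrogenase, and G6pdx, which held 80.5% to 89.5% of the total it forms with H6pd.

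Hk3 was the main hexokinase in every library. This isoform is known from myeloid cells, while Hk1 is the widespread form on the mitochondrial membrane and Hk2 is the inducible form of muscle and growing cells. Hk3 made up 68.3% ± 1.36 (SD, n = 3) of hexokinase TPM in WT M0 and 68% ± 0.45 in KO M0, and 76% ± 1.57 and 77.6% ± 0.69 in WT and KO M2. The share of Hk1 fell from 22.4% to 12% in WT and from 23.4% to 11.3% in KO. Hk2 rose from 9.28% to 12% and from 8.58% to 11.1%. IL-4 therefore shifted the shares by 8.68 percentage points for Hk3, by -11.3 for Hk1 and by 2.63 for Hk2, each with an exact permutation p of 0.005 (adjusted p = 0.008).

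Phosphofructokinase was mostly Pfkp, the platelet type, with then Pfkl, the liver type, and least Pfkm, the muscle type. Pfkl held 30.5%, 30.6% and 27.8% in WT M0 but 42.4%, 36% and 34.8% in KO M0, whereas in M2 its shares overlapped between WT (23%, 25.6% and 27%) and KO (27.4%, 24.6% and 24%). With IL-4 the share of Pfkl changed by -4.42 percentage points in WT and by -12.4 in KO, and that of Pfkp by 6.22 and 13.5 points. Over both genotypes these shifts, and that of Pfkm by -1.46 points, had an exact permutation p of 0.005 (adjusted p = 0.008). Averaged over treatments, the KO minus WT difference was 4.15 points for Pfkl and -4.35 for Pfkp, and the exact permutation test over 3 against 3 mice gave p = 0.1 for both, which is the smallest value this design allows.

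Among the bifunctional PFKFB enzymes, which make and degrade the sugar bisphosphate that activates phosphofructokinase, Pfkfb4 held 51.2% of TPM in WT M0 and 51.8% in KO M0. With IL-4 its share reached 70.1% ± 2.89 and 71.8% ± 2.44 in WT and KO, a shift of 19.4 percentage points, while Pfkfb2 changed by -12 and Pfkfb3 by -7.42 points (exact permutation p = 0.005, adjusted p = 0.008 for each). Pfkfb3, the isoform known for strong kinase activity, rose in level, as described below, but less than Pfkfb4.

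Slc2a1 (GLUT1), the basal glucose transporter, held most of the transporter TPM, with 75.1% ± 6.04 in WT and 72.7% ± 0.74 in KO in M0, and 70.5% ± 6.2 and 62.7% ± 2.02 in M2. Slc2a6 (GLUT6), a transporter of lysosomal membranes, held 17%, 20.6%, 24.3% and 32.4% in the same order, and Slc2a3 (GLUT3) held 4.89% to 7.87%. Shifts with IL-4 were -7.35 points for Slc2a1 (exact permutation p = 0.025, adjusted p = 0.0308), 9.54 for Slc2a6 (exact permutation p = 0.015, adjusted p = 0.02) and -2.19 for Slc2a3 (exact permutation p = 0.005, adjusted p = 0.008). The call for Slc2a1 was lost in 8 of the 12 tests without 1 library, with adjusted p up to 0.08.

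For lactate export, Slc16a3 (MCT4), the transporter of highly glycolytic cells, exceeded Slc16a1 (MCT1) in every library. Slc16a1 held 28.9%, 26.4% and 20.4% in WT M0 and 16.4%, 14.4% and 16.3% in KO M0, and in M2 it held 28.1% to 33.6% in WT and 24.2% to 26.4% in KO. IL-4 raised its share by 7.73 points (exact permutation p = 0.01, adjusted p = 0.0145). Its KO minus WT difference over both treatments was -7.45 points, without overlap of the genotypes in M0 or in M2 (exact permutation p = 0.1, the smallest possible). Of the 16 shares, 7 reached this smallest p for genotype, and none could pass the adjustment (lowest adjusted p = 0.229).

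**Figure D2:**
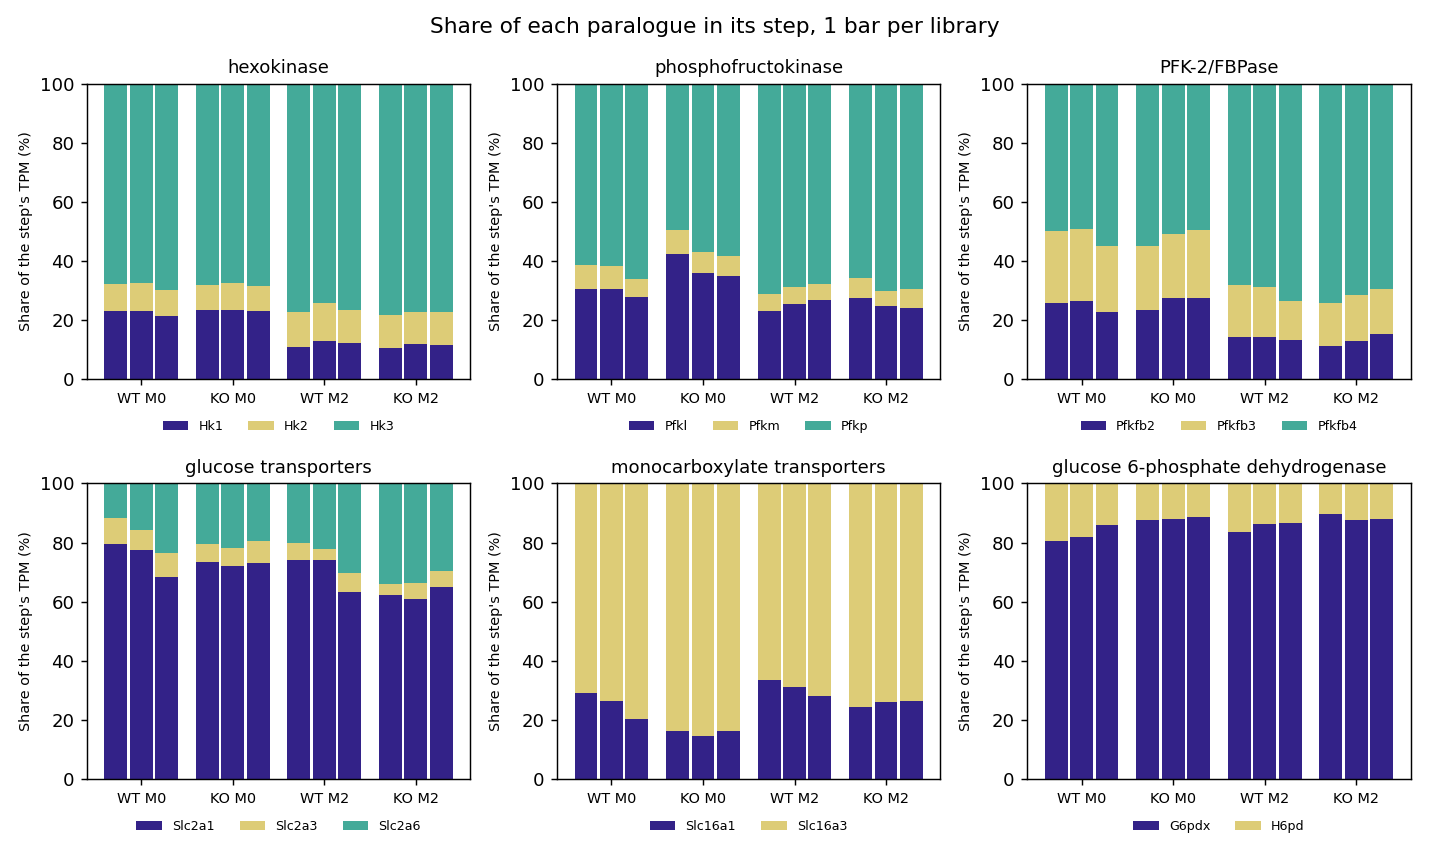
Share of each paralogue in the summed TPM of its step (percent), as stacked bars with 1 bar per library, in groups of 3 libraries for WT M0, KO M0, WT M2 and KO M2, for 6 steps. With IL-4 the bars of Hk1 shrink from 21.4% to 23.6% down to 10.5% to 12.8%, those of Pfkfb4 grow, and Pfkl is largest in the 3 KO M0 bars.

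The response to IL-4 was then examined gene by gene. Counts were compared with edgeR over 12846 genes, calls required an adjusted p below 0.05, and fold changes are of counts and not of TPM. IL-4 changed 20 of the 35 genes in WT (8 higher, 12 lower) and 23 in KO (8 higher, 15 lower), while it changed 49.8% of all genes tested in WT and 52.6% in KO. Of all genes, 24.8% were higher and 25.1% lower in WT, and 26.7% and 25.9% in KO. M0 and M2 libraries did not overlap for 21 of the 35 genes in WT (8 higher, 13 lower) and for 26 in KO (11 higher, 15 lower), and for 55.2% (27.9% and 27.3%) and 63.4% (32.1% and 31.3%) of all genes. The median log2 fold change of the 35 genes was -0.06 in WT (-0.01 over all genes) and -0.13 in KO (0.01 over all genes). Both comparisons have their own control libraries.

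Pfkfb4 (chr9:108991778-109032228, plus strand, GRCm38) had the largest increase with IL-4 of the 35 genes. Its TPM were 20.4, 17.5 and 17.8 in WT M0 and 50.8, 47.4 and 51.8 in WT M2. In KO they were 21.9, 18.4 and 17.4 in M0 and 49.5, 53.7 and 46.3 in M2. Every M2 library exceeded every M0 library, with log2 fold changes of 1.54 (SE 0.07, edgeR adjusted p = 1.6e-09) in WT and 1.51 (SE 0.07, edgeR adjusted p = 1.57e-09) in KO. Pfkfb3 rose by 0.45 in WT and 0.43 in KO (edgeR adjusted p = 0.00171 and 0.00163), at 7.14 to 13.2 TPM, and limma on TPM did not call it in KO (adjusted p up to 0.0739). Pfkfb2 was measured at 7.4 to 10.7 TPM with fold changes of 0.20 in WT and 0.00 in KO and was not called, though with the mouse as a block the WT value had an adjusted p of 0.0377 (edgeR). Tigar, a sugar bisphosphatase that lowers glycolytic flux, fell by 0.43 in WT and by 0.38 in KO (edgeR adjusted p = 2.69e-05 and 4.63e-05), from 14.4 to 16.9 TPM in M0 to 9.86 to 11.6 TPM in M2.

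The hexokinases moved in opposite directions. Hk1 (chr10:62268855-62379908, minus strand) had 69.9, 69.3 and 61.4 TPM in WT M0 and 77.6, 79.6 and 78.7 TPM in KO M0. In M2 it had 36.2, 41.2 and 39.6 TPM in WT and 35.5, 42.8 and 41.6 TPM in KO, below all M0 libraries. The log2 fold change with IL-4 was -0.74 (SE 0.06, edgeR adjusted p = 2.65e-07) in WT and -0.92 (SE 0.06, edgeR adjusted p = 2.49e-08) in KO. Hk2 had 28.7, 29.1 and 25.2 TPM in WT M0 and 27.8, 30.3 and 28.2 in KO M0. It had 39, 41.7 and 36.4 TPM in WT M2 and 37.4, 40 and 40.8 in KO M2. The groups with and without IL-4 did not overlap, with log2 fold changes of 0.54 and 0.59 (SE 0.05 in both, edgeR adjusted p = 4.56e-07 in WT and 1.77e-07 in KO). Hk3 (chr13:55005985-55021385, minus strand) had 206, 203 and 200.4 TPM in WT M0 and 224, 229 and 232 in KO M0. In M2 it had 256, 239 and 247 TPM in WT and 265, 279.9 and 279 in KO. Hk3 rose with IL-4 in both genotypes, by 0.33 in WT and 0.35 in KO (edgeR adjusted p = 2.78e-05 and 1.44e-05).

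Between glucose phosphate and pyruvate, IL-4 effects were small. Pfkp had 96.8, 98 and 108 TPM in WT M0 and 83.4, 102 and 101 in KO M0, and 125, 123 and 119 in WT M2 and 107, 133 and 119 in KO M2. It rose by 0.39 in WT and 0.42 in KO (edgeR adjusted p = 6.47e-05 and 3.33e-05). Aldoa had 1716, 1727 and 1804 TPM in WT M0 and 1854, 1912 and 1881 in KO M0, and 1434, 1352 and 1440.1 in WT M2 and 1503, 1493 and 1476 in KO M2. IL-4 lowered it by a log2 fold change of -0.25 in both genotypes (edgeR adjusted p = 0.0019 in WT and 0.00178 in KO), and Tpi1, which interconverts the triose phosphates, changed by -0.27 and -0.28 (edgeR adjusted p = 0.000334 and 0.000169). Pkm changed by -0.14 in WT and -0.22 in KO (edgeR adjusted p = 0.0375 and 0.0027), and its WT call was lost in 5 of the 6 fits without 1 library and with only the 6 libraries compared. Gpi1 was called only in WT (0.21 against 0.12 in KO), and Gapdh (-0.13 in KO, -0.09 in WT), Pgam1 (-0.18 against -0.06) and Aldoc (-0.28 against -0.12) only in KO, but none of these 4 was called in the test of the difference between the responses (edgeR adjusted p from 0.541 to 0.78). Without 1 library, the KO calls of Gapdh and Pgam1 were lost in 5 of 6 fits and that of Aldoc in 3. With the mouse as a block, Gpi1 and Pgk1 were also called in KO (edgeR adjusted p = 0.017 and 0.00631), as they were by DESeq2 and, for Pgk1, by limma on TPM, and Pfkm in WT (-0.19, edgeR adjusted p = 0.0384). Eno1 and Ldha were not called by edgeR in either genotype, with log2 fold changes between -0.04 and 0.04 (SE 0.06), whereas limma on TPM called both in KO at -0.13 (adjusted p of 0.0275 for Eno1 and 0.041 for Ldha on log2(TPM + 0.1), called on log2(TPM + 1) as well). For IL-4 in KO, the median of all genes was itself shifted relative to edgeR, by -0.082 on log2(TPM + 0.1) and by -0.079 on log2(TPM + 1). The part of this shift in the limma calls was not tested.

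At the membrane, Slc2a1 had 102, 112 and 109 TPM in WT M0 and 110.3, 114 and 103 in KO M0. With IL-4 it had 103, 109 and 100.5 TPM in WT and 101, 110.4 and 106 in KO, so that all 4 groups overlapped and the log2 fold changes were 0.01 and 0.03 (SE 0.06, edgeR adjusted p = 0.917 and 0.681). Slc2a3 was measured at 5.75 to 12.9 TPM and fell by 0.70 in WT (edgeR adjusted p = 0.00377, not called by limma on TPM with adjusted p up to 0.0514) against -0.14 in KO (edgeR adjusted p = 0.472). Slc2a6 is described because the mice of one group differed in it, which was noticed after the values were seen. It had 14.9, 22.6 and 37.7 TPM in WT M0 and 28.3, 32.6 and 48.2 TPM in WT M2, and 30.7, 34.6 and 27.7 TPM in KO M0 and 54.9, 60.8 and 48.6 TPM in KO M2. Each of the 6 mice had a higher value with IL-4. The log2 fold change was 0.90 (SE 0.33, edgeR adjusted p = 0.0424) in KO, a call lost in 6 of the 6 fits without 1 library and without the filter on low counts, and 0.59 (SE 0.34, edgeR adjusted p = 0.186) in WT. With the mouse as a block both were called, at 0.90 in KO (edgeR adjusted p = 6.69e-05) and at 0.65 in WT (edgeR adjusted p = 0.00109).

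Both lactate transporters fell with IL-4. Slc16a3 (chr11:120948480-120960868, plus strand) had 60.5, 69.6 and 83.3 TPM in WT M0 and 115, 115 and 99.6 in KO M0. In M2 it had 28, 33.2 and 40.7 TPM in WT and 38.7, 40 and 38.9 in KO. The log2 fold change was -0.97 (SE 0.15, edgeR adjusted p = 0.000246) in WT and -1.45 (SE 0.15, edgeR adjusted p = 7.91e-06) in KO, the largest decrease of the 35 genes in either genotype. Slc16a1 had 24.6, 25 and 21.4 TPM in WT and 22.6, 19.3 and 19.4 in KO without IL-4, and 14.2, 14.9 and 15.9 in WT and 12.3, 14 and 14 in KO with it. It changed by -0.60 and -0.52 (SE 0.07, edgeR adjusted p = 8.7e-06 and 2.22e-05).

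In the oxidative pentose phosphate arm, 3 of 4 genes fell in both genotypes. G6pdx, the entry enzyme that yields NADPH, had 194, 208 and 212 TPM in WT M0 and 232, 244 and 232 in KO M0, and 123, 140.1 and 144 in WT M2 and 132, 146 and 137 in KO M2. Pgd, which yields further NADPH, had 660.3, 688 and 671 TPM in WT and 685, 764 and 706 in KO without IL-4, and 432, 432 and 416 in WT and 425, 451 and 424 in KO with it. For both, all M2 libraries lay below all M0 libraries, with log2 fold changes of -0.54 in WT and -0.69 in KO for G6pdx (edgeR adjusted p = 1.23e-05 and 9.74e-07) and of -0.59 and -0.65 for Pgd (edgeR adjusted p = 9.06e-07 and 3.05e-07). H6pd, the counterpart of G6pdx in the endoplasmic reticulum, had 47.1, 45.9 and 34.3 TPM in WT and 33.2, 33.4 and 29.8 in KO without IL-4, and 24.4, 22.3 and 21.9 in WT and 15.4, 20.5 and 18.9 in KO with it. It changed with IL-4 by -0.77 in WT and -0.58 in KO (SE 0.09, edgeR adjusted p = 1.58e-05 and 0.000149). The mean transcript length of H6pd was 4591 to 4658 nucleotides in KO M2 and 4028 to 4431 in the other groups. TPM divide by this length, which also enters its share. In M2 its TPM did not overlap between WT and KO, whereas its counts overlapped. Pgls, the lactonase between G6pdx and Pgd, was not called (-0.11 and 0.06, SE 0.09). Summed over these 4 enzymes, the oxidative arm went from 1000.2 to 1046 TPM in WT M0 to 675 to 684 TPM in WT M2, and from 1070 to 1154 TPM to 688 to 726 TPM in KO.

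In the non-oxidative arm, Tkt (transketolase) rose by 0.31 in WT and 0.23 in KO (edgeR adjusted p = 0.00113 and 0.00667), at 294 to 399 TPM over all libraries, and limma on TPM did not call it in KO (adjusted p up to 0.0645). Taldo1 had 705, 716 and 664 TPM in WT M0 and 773, 806 and 788 in KO M0. With IL-4 it had 552, 548 and 523 TPM in WT and 604, 608 and 604 in KO, a change of -0.29 and -0.30 (SE 0.04, edgeR adjusted p = 7.72e-05 and 5.79e-05). Rpe was called in WT only (0.19, edgeR adjusted p = 0.00649) and Rpia in KO only (0.32, edgeR adjusted p = 0.029), and neither was called for a difference between the responses (edgeR adjusted p = 0.465 and 0.544). Limma on TPM called neither (adjusted p up to 0.0615 for Rpe and 0.19 for Rpia), and the Rpia call was lost in 3 of the 6 fits without 1 library.

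**Figure D3:**
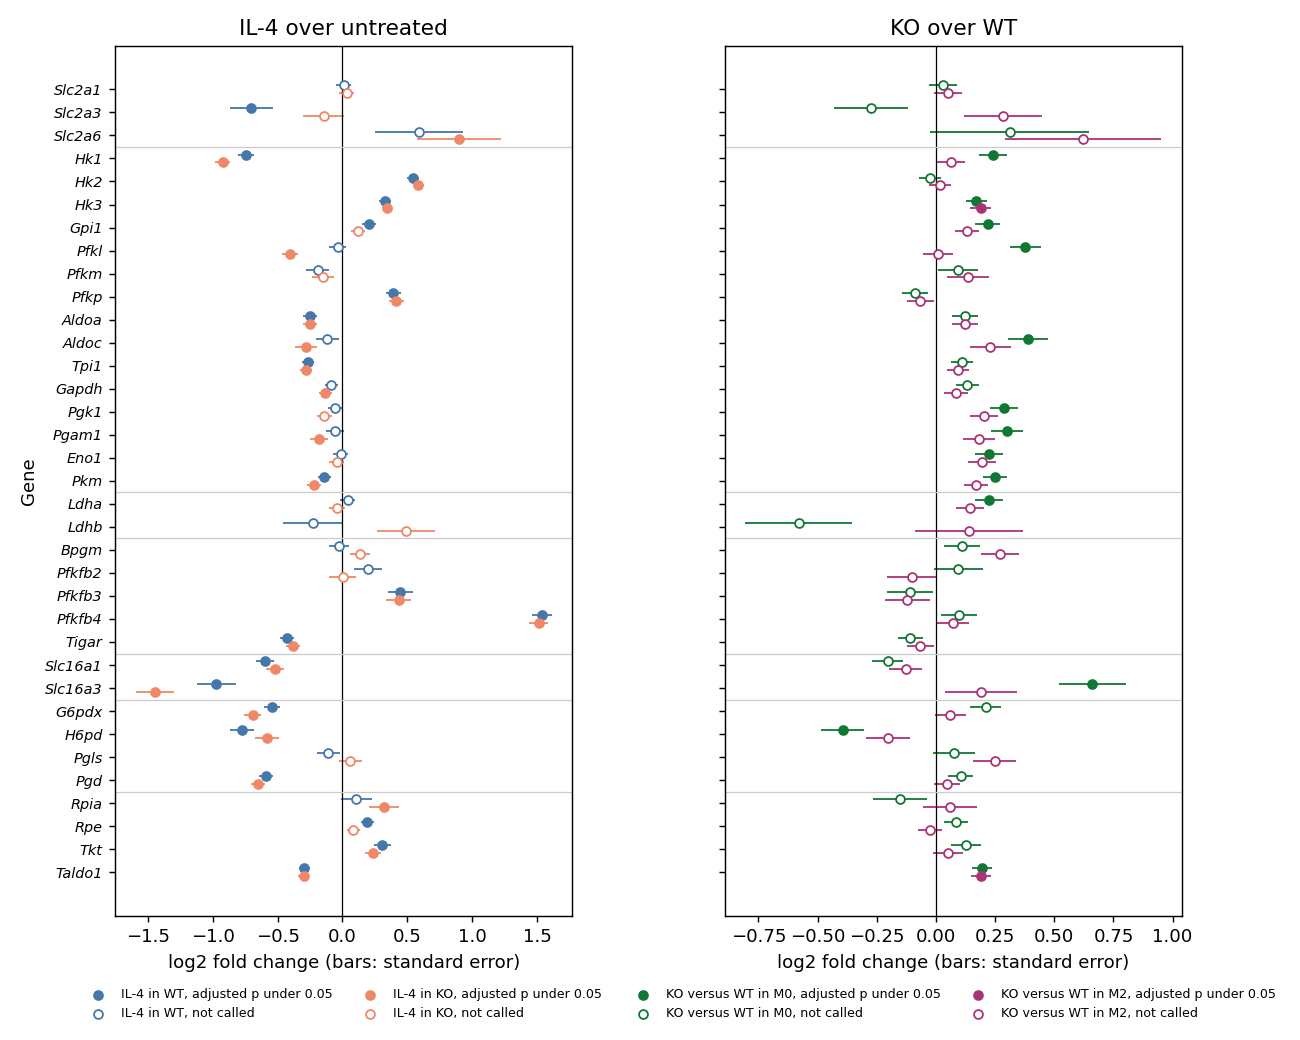
Log2 fold changes of counts for the 35 genes, ordered by place in the pathway. Left, IL-4 against untreated in WT and KO; right, KO against WT in M0 and M2. Bars are standard errors, and filled points have an adjusted p under 0.05. Pfkfb4 stands at 1.54 and 1.51 and Slc16a3 at -0.97 and -1.45 on the left, and most filled points on the right are M0 values above 0.

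KO and WT were compared in untreated macrophages next. In M0, 13 of the 35 genes were called, 12 higher and 1 lower in KO, and the share of all genes called was 9.69%, with 5.5% higher and 4.2% lower. Several of these genes belong to a glycolytic set that the study selected on the same libraries, so their number is not independent evidence of a direction. The median log2 fold change of the 35 genes was 0.11 (0.00 over all genes), and 26 of the 35 values were positive. KO and WT libraries did not overlap for 20 genes, 15 of them higher in KO, and 31.1% of all genes did not overlap (16.2% higher, 14.9% lower). Without replicate 2 of WT M0 or without replicate 2 of KO M0 only 4 genes were called, without replicate 3 of KO M0 it was 5, and without replicate 1 of WT M0 it was 8. Pfkl and Pgk1 were called in each of the 6 fits without 1 library.

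Pfkl (chr10:77986947-78010083, minus strand) had 48.1, 48.5 and 45.7 TPM in WT M0 and 71.3, 64.6 and 60.4 TPM in KO M0, without overlap. The log2 fold change was 0.38 (SE 0.06, edgeR adjusted p = 0.00334). The other 2 phosphofructokinases were not called (Pfkp -0.09, Pfkm 0.09, edgeR adjusted p = 0.361 and 0.547). Hk1 was higher by 0.24 (SE 0.06, edgeR adjusted p = 0.0214) and Hk3 by 0.17 (SE 0.04, edgeR adjusted p = 0.0247), while Hk2 was at -0.03. On TPM with limma the call for Hk1 was lost.

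Pgk1 (chrX:106187100-106203699, plus strand), the first of the ATP-yielding kinases, had 1357, 1395 and 1449 TPM in WT M0 and 1674, 1722 and 1708 in KO M0. It was higher in KO by 0.29 (SE 0.06, edgeR adjusted p = 0.00921). Other enzymes of the pathway were also higher. Gpi1 had 624, 626 and 652 TPM in WT M0 and 741, 755 and 716 in KO M0 (log2 fold change 0.22, edgeR adjusted p = 0.0195). Pgam1 had 581, 590 and 642 TPM against 766, 724 and 735 (0.30, edgeR adjusted p = 0.0156). Eno1 had 1156, 1205 and 1255 TPM against 1407, 1421 and 1367 (0.23, edgeR adjusted p = 0.0275). In each of these genes every KO library exceeded every WT library. Pkm had 2877, 3031 and 2992 TPM against 3449, 3667 and 3421 (0.25, edgeR adjusted p = 0.01), and Ldha had 1136, 1159 and 1225 TPM against 1370, 1381 and 1345 (0.23, edgeR adjusted p = 0.0294). The minor aldolase Aldoc had 42, 43.7 and 46.1 TPM against 65.9, 55.8 and 52.6 (0.39, SE 0.09, edgeR adjusted p = 0.0135). Leaving out single libraries removed the calls of Eno1 and Ldha in 5 of 6 fits those of Gpi1 and Hk3 in 4, that of Hk1 in 3, those of Pgam1, Aldoc and Taldo1 in 2 and that of Pkm in 1. With only the 6 libraries compared, the calls of Eno1, Ldha, Gpi1 and Hk3 were lost and 9 genes were called. Aldoa, Tpi1 and Gapdh had log2 fold changes of 0.11 to 0.13 and were not called by edgeR (adjusted p from 0.114 to 0.195), though limma on TPM called Tpi1 and DESeq2 called Gapdh. Processed copies of Pgk1 and Pgam1 elsewhere in the genome can share reads with their parent genes, and the deposited tables assigned them at most 0.996% and 0.979% of the parent count. Adding the counts of such copies to the parents changed none of these calls.

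Slc16a3 showed the largest difference between the genotypes in M0 among the genes called, with the TPM given above. Its KO libraries (99.6 to 115 TPM) all exceeded its WT libraries (60.5 to 83.3 TPM), and the log2 fold change was 0.66 (SE 0.14, edgeR adjusted p = 0.0172), a call lost in 3 of the 6 fits without 1 library. Slc16a1 was at -0.20 (edgeR adjusted p = 0.0726), and Slc2a1 at 0.03 (SE 0.06, edgeR adjusted p = 0.808). In the pentose phosphate pathway Taldo1 was higher by 0.19 (SE 0.04, edgeR adjusted p = 0.0144) and H6pd lower by 0.39 (SE 0.09, edgeR adjusted p = 0.0183). The H6pd call was lost in 4 of the 6 fits without 1 library and with limma on TPM. Replicate 3 of WT M0 (34.3 TPM) lay close to the KO libraries (29.8 to 33.4 TPM). G6pdx, with 194 to 212 TPM in WT and 232 to 244 in KO, had a log2 fold change of 0.21 and was not called (SE 0.06, edgeR adjusted p = 0.0569), but was called by DESeq2 and without the filter on low counts. The PFKFB enzymes, Tigar and Bpgm were not called, with values from -0.11 to 0.11. For Bpgm, which makes the bisphosphoglycerate of red cells, counts and TPM gave different pictures. Its mean transcript length was 1935, 2206 and 2057 nucleotides in WT M0 and 1535 to 1691 in the other 9 libraries, and its TPM of 10.5, 8.76 and 9.76 in WT M0 lay below the 12.8 to 13.2 TPM in KO M0, while its CPM overlapped at the edge (up to 11.1 in WT M0 and from 11 in KO M0). Limma on TPM called it in M0 and edgeR on counts did not, and the part of the length in this was not tested.

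In M2 macrophages fewer of these genes were called between KO and WT. Of the 35 genes 2 were called, both higher in KO, and 2.68% of all genes were called (1.18% higher, 1.49% lower). These were Hk3 (0.19, SE 0.04, edgeR adjusted p = 0.0373) and Taldo1 (0.19, SE 0.04, edgeR adjusted p = 0.0392), for which the KO libraries (265 to 279.9 and 604 to 608 TPM) lay above the WT libraries (239 to 256 and 523 to 552 TPM). Both calls were lost in each of the 6 fits without 1 library, without the filter on low counts, with only the 6 libraries compared and with limma on TPM, while DESeq2 called 5 genes, adding Pkm, Pgk1 and Eno1 to these 2. The median log2 fold change was 0.09 (0.00 over all genes) and 28 of the 35 values were positive. The groups did not overlap for 15 genes, 14 of them higher in KO, and for 24.8% of all genes (13.1% higher, 11.7% lower). Pgk1 (0.20), Eno1 (0.19), Pgam1 (0.18), Pkm (0.17) and Ldha (0.14) were among these 14 with an adjusted p of 0.0855 to 0.196 (edgeR). Pfkl was at 0.01 (SE 0.06, edgeR adjusted p = 0.958), with 40.5 to 47.5 TPM in WT and 41.1 to 46.5 in KO.

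Whether the response to IL-4 differed between KO and WT was tested directly. Of the 35 genes 1 was called, Pfkl, and of all genes 3.34% (1.14% higher, 2.2% lower). Pfkl changed with IL-4 by -0.03 in WT (SE 0.06, edgeR adjusted p = 0.686) and by -0.40 in KO (SE 0.06, edgeR adjusted p = 0.000127), which is a difference of -0.37 (SE 0.09, edgeR adjusted p = 0.045). In CPM, Pfkl was lower with IL-4 in all 6 mice, and went from 78.1, 82.2 and 84.9 to 76.5, 78.3 and 84.5 in WT and from 116, 104 and 99.2 to 84.9, 78.1 and 77.8 in KO. In TPM, which divides by the mean transcript length of each library, 1 of the WT mice had a higher value with IL-4. The call was lost in 8 of the 12 fits without 1 library and with limma on TPM (adjusted p up to 0.119), and had an adjusted p of 0.00501 with the mouse as a block (edgeR). With this block 3 genes were called, because Slc16a3 (-0.47, edgeR adjusted p = 0.00381 with the block and 0.271 without) and Slc2a3 (0.56, edgeR adjusted p = 0.0386 with the block and 0.233 without) were added. The other 32 genes were not called with or without the block.

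**Figure D4:**
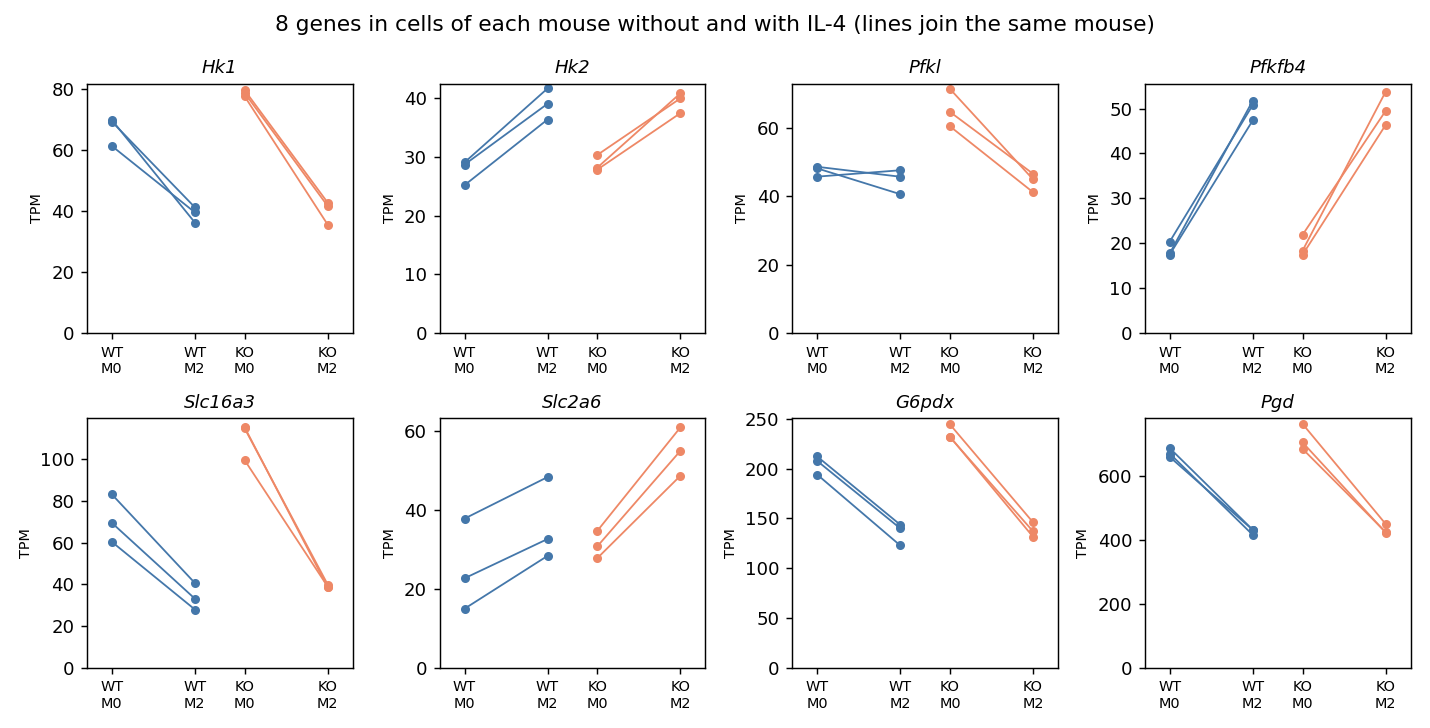
TPM of 8 genes in each mouse without (M0) and with IL-4 (M2), WT in blue and KO in orange, with lines joining the libraries of 1 mouse and axes starting at 0. All lines of Hk1, Slc16a3, G6pdx and Pgd fall and all lines of Hk2, Pfkfb4 and Slc2a6 rise. Pfkl starts at 60.4 to 71.3 TPM in KO M0, above WT M0 (45.7 to 48.5), and the other 3 groups lie in a range from 40.5 to 48.5 TPM.

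Other genes of sugar metabolism were taken from 4 lists, whose counts stand against the shares of all genes called with IL-4 (49.8% in WT, 52.6% in KO), between KO and WT in M0 (9.69%) and M2 (2.68%), and for the difference between the responses (3.34%). Among 12 tested isozymes and transporters outside the 35 genes, IL-4 raised 3 and lowered 2 in each genotype. Slc16a10, an aromatic amino acid transporter of the monocarboxylate family, fell by 1.87 in WT and by 1.98 in KO on the log2 scale (edgeR adjusted p = 2.5e-10 and 1.21e-10). Slc16a13, of the same family, was the 1 gene of this list called between KO and WT (0.30 in M2, edgeR adjusted p = 0.0282), and limma on TPM called 0 of the list there. Among 18 tested enzymes of related sugar pathways, 8 rose and 3 fell with IL-4 in WT, and 9 rose and 2 fell in KO. Galm, which interconverts the anomers of hexoses, rose by 1.47 in WT and 1.28 in KO (edgeR adjusted p = 7.08e-09 and 2.25e-08), and was lower in KO M2 than in WT M2 (-0.32, edgeR adjusted p = 0.0477). In M2, DESeq2 called 3 genes of this list between KO and WT and limma on TPM 1. Prps1, which makes the ribose donor for nucleotides from the product of the pentose phosphate pathway, rose by 0.68 in WT and 1.07 in KO and was higher in KO M2 (0.41, edgeR adjusted p = 0.00593), with a difference between the responses of 0.39 (edgeR adjusted p = 0.0246) that limma on TPM did not call.

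Gfpt1, which diverts sugar phosphate from glycolysis into hexosamines, was higher in KO M0 by 0.49 (SE 0.06, edgeR adjusted p = 0.000338) and stood at -0.02 in M2, and the difference between the responses was -0.50 (edgeR adjusted p = 0.00627), also not called by limma on TPM. Among 12 tested genes of glycogen metabolism and gluconeogenesis, edgeR called 3 higher in KO M0, against 5.5% of all genes, while DESeq2 called 4 of the list and limma on TPM 1. The 3 were Gys1 (glycogen synthase, 0.43, edgeR adjusted p = 0.00117), Pygl (glycogen phosphorylase, 0.27, edgeR adjusted p = 0.0199) and Gbe1 (the branching enzyme, 0.27, edgeR adjusted p = 0.0428). In M2, 0 of the 12 were called with edgeR, DESeq2 or limma, and 0 had an unadjusted p under 0.05. The response of Gys1 to IL-4 differed between the genotypes (-0.43, edgeR adjusted p = 0.0196), which limma on TPM did not call. IL-4 lowered 5 of the 12 in WT and 7 in KO and raised 1 and 2. Of 13 tested regulators of glycolytic transcription and glucose uptake, 8 rose and 3 fell with IL-4 in WT, and 9 rose and 3 fell in KO, whereas edgeR called 0 between the genotypes in M0 (4 with an unadjusted p under 0.05, 2 called by DESeq2 and 1 by limma) and 0 in M2 (3 with an unadjusted p under 0.05, 0 called by DESeq2 and limma). Ppargc1b, a coactivator of oxidative metabolism, rose by 1.13 and 1.09 (edgeR adjusted p = 9.95e-05 and 9.76e-05). A further 3 regulators were singled out after their values were seen. Hif1a, which encodes the hypoxia-inducible activator of glycolytic genes, fell by 0.68 in WT and by 0.64 in KO (edgeR adjusted p = 6.42e-08 and 1.05e-07), Myc rose by 0.66 and 0.94 (edgeR adjusted p = 6.06e-07 and 1.4e-08), and Txnip, an inhibitor of glucose uptake, rose by 0.81 and 0.77 (edgeR adjusted p = 1.72e-07 and 2.36e-07).

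Promoter sequences (RefSeq, build GRCm38.p6, 250 bases before to 50 after a transcription start) were found for 34 of the 35 genes in 49 windows. The hypoxia response core, ACGTG or GCGTG on either strand, occurred in 38 of the 49 windows (77.6%) and in 43.8% of all 32851 windows of the same length. The E-box CACGTG, which contains the former core, occurred in 10.2% of the windows of these genes and in 7.2% of all windows. Values for a STAT6-type element (TTCNNNNGAA) were 10.2% and 7%, and for the antioxidant response core (TGACNNNGC) 10.2% and 12.4%. Windows of 1 gene can overlap, and matches are of letters only. All windows served as background without matching for base composition or expression, so the shares describe and do not test enrichment. The following stretches show the match nearest the start site, in capitals, for the genes whose KO and WT difference in M0 was called in every fit without 1 library (Pfkl, Pgk1), for the called gene with the largest fold change there (Slc16a3), for Ldha with its E-box, for the gene most increased by IL-4 (Pfkfb4) and for the STAT6-type match of Hk3, each written 5′ to 3′ on the strand of the gene, so that CACGT stands for ACGTG on the opposite strand.
Pfkl (chr10:78009891-78009916, minus strand): ttgtagactgGCGTGcgctccgcctt
Pgk1 (chrX:106186959-106186984, plus strand): atggaagtagCACGTctcactagtct
Slc16a3 (chr11:120949043-120949068, plus strand): tgcgcgggggACGTGccgcgcgacgg
Ldha (chr7:46845746-46845771, plus strand): gcccagcctaCACGTGggttcccgca
Pfkfb4 (chr9:108991775-108991800, plus strand): gacggatgggGCGTGcttagtccaaa
Hk3 (chr13:55021477-55021502, minus strand): ccgcttctTTCCAAGGAActtggcac
A hypoxia core was thus present both in genes that rose with IL-4 (Pfkfb4) and in genes that fell (Slc16a3), and both in genes that were higher in KO M0 and in genes that were not called, such as Slc2a1 with 2 matches. A STAT6-type match was found for 5 genes. In the edgeR fit without a block, Hk3 rose and Pgd fell with IL-4 in both genotypes. Gpi1 was called there in WT only, and Ldha and Pfkfb2 in neither genotype. With the mouse as a block, edgeR also called Gpi1 in KO and Pfkfb2 in WT. Pfkfb4 had no STAT6-type match in its window. Sequence outside the windows was not searched, and the part of any match in these changes was not tested.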

How the data were processed

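RNA-Seq tables of 12 libraries were used as deposited. Per the study's methods, the authors processed reads with the Grape-nf pipeline on GRCm38/mm10 after FastQC 0.11.2. The quantifier and the strand setting of the counting are not given in the sources used here. The tables deposited by the authors hold expected counts (estimated reads per gene, with shared reads split between genes) and TPM, in a maximum-likelihood version and as a posterior mean, with mean gene lengths. Tables of the authors' own DESeq2 comparisons (mean counts, fold changes, p-values) were used only to pair gene IDs with symbols.

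Expected counts were rounded, filtered with filterByExpr by group, and fitted for 12846 genes with edgeR 4.0.16 (TMM, robust quasi-likelihood, 1 coefficient per group over 12 libraries) in R 4.3.3. Benjamini-Hochberg adjustment covered all 12846 genes in each comparison. The biological coefficient of variation was 8.08%. With 3 libraries per group, p-values for KO against WT within a treatment measure the spread between mice. This fit took the 12 libraries as independent and did not use the pairing of M0 and M2 by mouse. Where M0 and M2 enter the same test, its p-values therefore do not measure how the response varied from mouse to mouse. Among the fits of counts, only that with the mouse as a block used the pairing. Shares were tested with exact permutations in Python 3.11.15 with numpy 2.4.6 and pandas 2.3.3. The scripts were tested on simulated data. Coordinates of genes are from GENCODE M21.

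M0 and M2 libraries with the same mouse number deviated together from their group means (correlations of 0.331, 0.103 and 0.364 in WT, 0.166, 0.16 and 0.209 in KO), so the number pairs treatments. WT and KO libraries with the same number did not (-0.068 to 0.04). Alternatives were DESeq2 1.42.0, RLE size factors, 2 other filters (none, or 1 CPM in 3 libraries), a replicate block, limma 3.58.1 on log2 TPM with a pseudocount of 1 or 0.1, only the 6 libraries compared, counts of gene copies added to their parents, and each library left out. No alternative scaling moved the median of all genes by over 0.1 on the log2 scale. The largest shifts were those of limma on log2(TPM + 0.1) for IL-4, with -0.061 in WT and -0.082 in KO.

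The genes and lists were chosen with earlier results of these data known. Values of all libraries are given for genes with the largest share of a step, for genes called between genotypes or in the difference between responses, and for genes called for IL-4 in both genotypes with log2 changes of 0.5 or more in either direction. Exceptions are Gpi1, Aldoc, Pgk1, Pgam1, Eno1, Pkm and Ldha, for which only M0 libraries are given. For Pfkl, levels of the single M2 libraries are given in CPM. Genes of the other lists are named where called between genotypes, or for IL-4 in both with log2 changes of 1 or more. Protein sequences were not analysed here.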

Additional observations from a re-analysis of the deposited data

Results flagged for a closer look

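Pfkl, liver-type phosphofructokinase, was called in the test of the difference between the log2 responses of KO and WT to IL-4 (-0.369, SE 0.09, edgeR adjusted p = 0.045), a call lost in 8 of the 12 fits without 1 library and with limma on TPM (adjusted p up to 0.119). Its level was 47.4 ± 1.55 TPM (mean ± SD, n = 3) in WT M0 and 65.4 ± 5.51 in KO M0, and 44.6 ± 3.61 and 44.2 ± 2.77 in WT and KO M2. The unadjusted p was under 0.05 for 4 of the 35 genes in this test.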

How the results depend on the processing

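Under settings other than leaving out 1 library, the fit of only the 6 libraries compared included, 1478 values of single genes kept their side of the threshold, 30 lost a call, 30 gained one and 2 changed sign with a call under the other setting. Both reversals were of Bpgm with IL-4 in WT (-0.03 in counts), which limma on TPM put at 0.232 and 0.252 with pseudocounts of 1 and 0.1 (adjusted p = 0.032 and 0.0295), and its mean length differed between these groups, as given above. Between KO and WT in M2, DESeq2 called 5 of the 35 genes, while 0 were called by edgeR without the filter on low counts, by edgeR on only the 6 libraries compared, or by limma on either TPM scale (12 had an unadjusted p under 0.05 in the edgeR test of all libraries). For the difference between the responses, limma on either scale called 0, against 4 genes below 0.05 before adjustment in edgeR, and the replicate block, here the mouse, called 3. With this block IL-4 changed 23 genes in WT and 25 in KO. Between KO and WT, where equal numbers do not pair mice, a block by number gave 14 genes in M0, with G6pdx added (edgeR adjusted p = 0.0265), and 3 in M2, with Pgk1 added (edgeR adjusted p = 0.0473). Without 1 library, 4 to 18 genes were called in M0, 0 in M2 and 0 to 1 for the difference, and the counts for IL-4 stayed within 1.5 times. Summed posterior mean TPM were 15453.3 in WT M0, 17666.6 in KO M0 and 13736.8 in WT M2. The same number of shares, 13, changed with IL-4 under each of the 4 other settings, which include a replicate block by sign changes over the 6 mice. With 3 mice per group a small change can go uncalled, and for Ldhb the low counts limit the precision.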
